A study of Mus musculus with 12 samples.

Results

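Prox1, Flt4, Lyve1, Pdpn, Reln and Mmrn1 are 6 genes used to mark lymphatic endothelium, taken by symbol out of the 50600 genes counted in RNA-seq libraries of mouse aorta. The set was proposed with results of these libraries in view, in particular the levels after minoxidil, so it counts as selected on the CPM of the on-drug and control libraries, and the values of that comparison are given as a description: the calls of the fit over all genes are counted, and nothing is read from them. All 6 genes had reads in all 12 libraries and passed the filter on low counts, which 24660 genes passed.

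The aortas came from C57BL/6J mice carrying 1 intact elastin allele (Elastin +/-, also written Eln+/-), and the segment ran from the left subclavian artery down to the diaphragm. The off-drug mice drank minoxidil, a blood pressure drug that acts by opening ATP-sensitive potassium channels, for 2 weeks from 2.5 months of age and then plain water for 1 week. The on-drug mice drank minoxidil for the same 2 weeks and were sampled at the end, and the control mice drank plain water. Each group had 4 libraries, every group carried the elastin mutation, and no wild-type aorta was analysed here. All 12 samples are labelled 3 months old. The labels' protocol has the off-drug mice sampled 1 week after the end of the drug, and if they were older by that week, it cannot be told apart from withdrawal. The sex of the mice and the hour of collection are not given in the labels, and nothing says how animals map to replicates beyond 4 separate samples a group.

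Lymphatic vessels drain interstitial fluid and immune cells, and in a large artery they lie in the adventitia, the outer coat of the wall. Their endothelium is specified by the transcription factor Prox1 and grows in response to VEGF-C and VEGF-D, which signal through VEGFR-3, the product of Flt4. Lyve1 and Pdpn encode surface proteins of lymphatic endothelium but are also made by other cells of connective tissue, Lyve1 by resident macrophages and Pdpn by fibroblasts and mesothelium. Reln and Mmrn1 encode secreted proteins, reelin and multimerin, that lymphatic endothelium makes in most organs, and Mmrn1 is also made by platelets and their precursors.

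The libraries held 41524501 to 109423243 counted reads, and Spearman correlations between libraries of 1 group ran from 0.984 to 0.989 over the genes tested. Levels are given as CPM, read counts scaled to a common library size after correction by the trimmed mean of M values. Smooth muscle is the main cell of the aortic wall. Its summed markers stood at 17110 to 19615 CPM off drug, 17818 to 20508 CPM on drug and 15622 to 18111 CPM in controls.

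The genes lie on 6 chromosomes of GRCm38. Prox1 (ENSMUSG00000010175.13) spans chr1:190118035-190170714 on the minus strand, and 133 of its 8390 exonic bases (1.59%) overlap the antisense gene Prox1os. Flt4 (ENSMUSG00000020357.3) spans chr11:49609263-49652739 on the plus strand. Lyve1 (ENSMUSG00000030787.4) spans chr7:110850607-110863239 on the minus strand. Pdpn (ENSMUSG00000028583.14) spans chr4:143267431-143299564 on the minus strand. Reln (ENSMUSG00000042453.14) spans chr5:21884454-22344702 on the minus strand, and 246 of its 23738 exonic bases (1.04%) overlap Gm10475 on the other strand. Mmrn1 (ENSMUSG00000054641.10) spans chr6:60924976-60989378 on the plus strand. Reads from a gene and its antisense partner cannot be told apart in these counts, so the Prox1 and Reln values may hold a few reads of their neighbours.

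Promoter sequences are shown for Prox1, Pdpn and Reln, 1 gene from each of the 3 patterns of co-variation given further on. They are the 250 bases before the RefSeq start site (GRCm38.p6), read 5′ to 3′ on the gene's strand, and 5 of the 6 genes matched an entry of the RefSeq table. The table lists 2 start sites for Prox1. The window of the outer one is shown, and that of the other, chr1:190169516-190169765, inside the annotated gene, has 56.0% G and C and held none of the strings. The Prox1 window shown is chr1:190170828-190171077, the Pdpn window chr4:143299565-143299814 and the Reln window chr5:22344706-22344955, all on the minus strand. Capitals mark exact matches, on either strand, to 7 searched strings.
Prox1: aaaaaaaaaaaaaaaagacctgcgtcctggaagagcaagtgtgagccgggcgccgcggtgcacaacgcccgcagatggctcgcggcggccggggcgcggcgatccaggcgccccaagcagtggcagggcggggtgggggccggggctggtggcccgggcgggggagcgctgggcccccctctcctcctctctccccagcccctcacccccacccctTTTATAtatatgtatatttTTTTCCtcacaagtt
Pdpn: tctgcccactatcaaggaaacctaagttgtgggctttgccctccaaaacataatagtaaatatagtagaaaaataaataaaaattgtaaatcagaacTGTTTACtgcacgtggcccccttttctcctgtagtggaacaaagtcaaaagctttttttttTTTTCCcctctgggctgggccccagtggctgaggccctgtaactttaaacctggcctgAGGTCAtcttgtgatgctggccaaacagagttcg
Reln: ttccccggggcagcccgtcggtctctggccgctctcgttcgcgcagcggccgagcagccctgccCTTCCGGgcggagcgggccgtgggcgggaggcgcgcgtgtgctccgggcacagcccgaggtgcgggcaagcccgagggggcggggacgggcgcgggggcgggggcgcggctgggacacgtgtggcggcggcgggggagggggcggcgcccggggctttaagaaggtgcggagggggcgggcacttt
The searched strings were a SOX core (AACAAT, in 9.42% of 32851 promoters of the same length), a GATA core (AGATAA, 9.99%), a forkhead site (GTAAACA, 3.17%), an NFAT core (GGAAAA, 20.4%), a nuclear receptor half-site (AGGTCA, 14.0%), an ETS site (CCGGAAG, 6.91%) and a TATA box (TATAAA, 12.4%). No 2 matches overlapped in the 3 windows shown. The Prox1 window held the TATA box and the NFAT core near its 3′ end, both on the other strand. The Pdpn window held the forkhead site, the NFAT core and the half-site, and the Reln window held the ETS site alone. The windows also differed in base composition, at 64.8% G and C for Prox1, 43.2% for Pdpn and 80.0% for Reln, against a median of 52.4% over all promoters. No string was shared by all 3 windows, and a match describes letters only.

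Per kilobase of exon, the 6 genes kept 1 order of level in each group. Lyve1 was highest, at 11.3 CPM per kb off drug, 26.7 on drug and 16.4 in controls. Pdpn followed at 7.46 off drug, 10.6 on drug and 8.17 in controls. Mmrn1 came next at 1.46 off drug, 3.01 on drug and 1.74 in controls. Flt4 (0.569, 1.12 and 0.587 CPM per kb off drug, on drug and in controls), Reln (0.221, 0.413 and 0.238) and Prox1 (0.0795, 0.123 and 0.0484) stood below these. The libraries of neighbouring genes in this order did not overlap in any group (0 of 15 pairs). The transcription factor that defines the lineage was thus the least abundant member and the 2 surface proteins shared with other cells the most abundant.

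**Figure D1:**
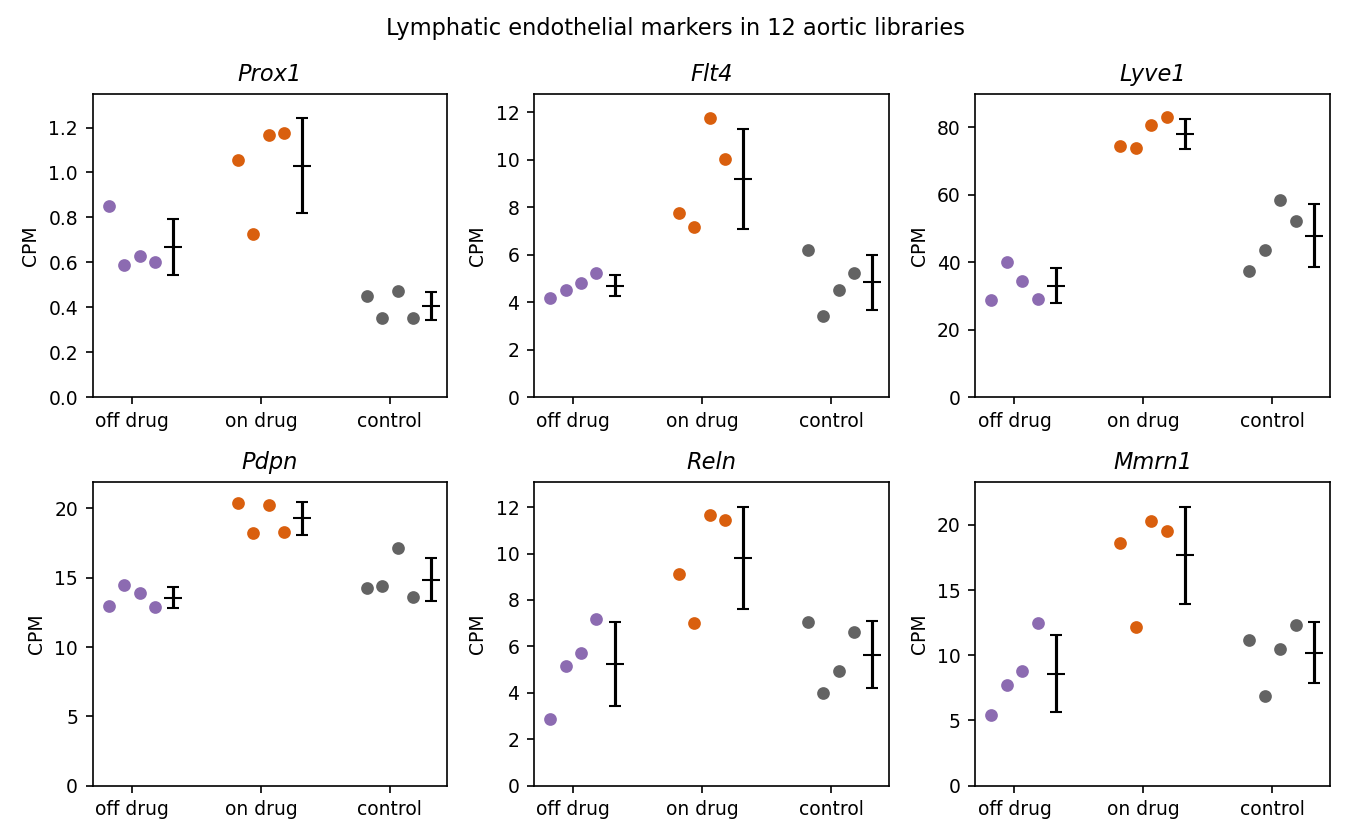
Level of each marker in CPM (y axis, from 0) in the 4 off-drug, 4 on-drug and 4 control libraries (points, replicates 1 to 4 from left to right), with the mean and SD beside each group. The 4 on-drug libraries of Lyve1 sit between 74.0 and 83.0 CPM, above every off-drug and control library, while on-drug replicate 2 of Reln and Mmrn1 lies among the controls.

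Prox1, the master transcription factor of lymphatic identity, was detected at a low level. It had 0.853, 0.587, 0.628 and 0.600 CPM in the off-drug libraries, 1.06, 0.725, 1.17 and 1.17 CPM in the on-drug libraries and 0.451, 0.351, 0.471 and 0.351 CPM in the control libraries. All 4 off-drug and all 4 on-drug libraries lay above all 4 controls, and on-drug replicate 2 fell below off-drug replicate 1. These values rest on 47 to 63 reads a library off drug, 37 to 115 on drug and 23 to 29 in controls. Prox1 averaged 0.667 ± 0.125 CPM off drug, 1.03 ± 0.211 CPM on drug and 0.406 ± 0.0642 CPM in controls (SD, n = 4 each). Fewer cells of a type and less RNA per cell cannot be told apart in whole tissue, here and for every gene that follows.

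Flt4, the receptor tyrosine kinase for VEGF-C and VEGF-D, had 4.19, 4.52, 4.80 and 5.23 CPM off drug, 7.75, 7.17, 11.8 and 10.04 CPM on drug, and 6.19, 3.43, 4.50 and 5.22 CPM in controls. Every on-drug library exceeded every other library, and all off-drug libraries fell inside the control range. The means were 4.69 ± 0.439 CPM off drug, 9.18 ± 2.12 CPM on drug and 4.83 ± 1.16 CPM in controls (SD, n = 4 each). The spread on drug was the widest of the 3, with on-drug replicates 3 and 4 above replicates 1 and 2.

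Lyve1, a hyaluronan receptor, had 28.9, 39.95, 34.6 and 29.0 CPM off drug, 74.6, 74.0, 80.6 and 83.0 CPM on drug, and 37.4, 43.6, 58.6 and 52.3 CPM in controls. The on-drug libraries stood together above all others, and 3 of the 4 off-drug libraries lay below every control. The means were 33.1 ± 5.28 CPM off drug, 78.1 ± 4.47 CPM on drug and 48.0 ± 9.35 CPM in controls (SD, n = 4 each).

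Pdpn encodes podoplanin, a mucin-type glycoprotein that binds the platelet receptor CLEC-2. It had 12.98, 14.4, 13.9 and 12.9 CPM off drug, 20.4, 18.2, 20.2 and 18.3 CPM on drug, and 14.3, 14.4, 17.1 and 13.6 CPM in controls. The on-drug libraries again lay above all others, while the off-drug and control libraries overlapped. The means were 13.5 ± 0.757 CPM off drug, 19.3 ± 1.20 CPM on drug and 14.8 ± 1.55 CPM in controls (SD, n = 4 each).

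Reln, the secreted glycoprotein reelin, had 2.89, 5.16, 5.73 and 7.19 CPM off drug, 9.10, 7.01, 11.7 and 11.4 CPM on drug, and 7.04, 3.98, 4.94 and 6.60 CPM in controls. Mmrn1, whose product multimerin binds coagulation factor V, had 5.39, 7.70, 8.83 and 12.5 CPM off drug, 18.6, 12.2, 20.3 and 19.5 CPM on drug, and 11.1, 6.91, 10.5 and 12.3 CPM in controls. For both genes on-drug replicate 2 overlapped the controls and the other 3 on-drug libraries were above every control and off-drug library. Reln averaged 5.24 ± 1.79 CPM off drug, 9.81 ± 2.19 CPM on drug and 5.64 ± 1.43 CPM in controls, and Mmrn1 averaged 8.59 ± 2.95 CPM off drug, 17.7 ± 3.72 CPM on drug and 10.2 ± 2.32 CPM in controls (SD, n = 4 each).

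At the end of 2 weeks of minoxidil, all 6 markers had higher mean levels than in controls. The log2 fold changes on drug against control, with their standard errors, were 1.35 ± 0.26 for Prox1, 0.92 ± 0.17 for Flt4, 0.70 ± 0.13 for Lyve1, 0.38 ± 0.08 for Pdpn, 0.80 ± 0.27 for Reln and 0.79 ± 0.27 for Mmrn1. Their median was 0.79, against 0.0049 over all genes tested. In edgeR's quasi-likelihood fit, 4 of the 6 (Prox1, Flt4, Lyve1 and Pdpn) passed an adjusted p of 0.05, beside 4.13% of all genes called higher. The same 4 had no overlap between the 2 groups, beside 6.30% of all genes higher in that way. The genes were proposed on this comparison, so these counts are description and support nothing. Leaving out any 1 library kept the median between 0.65 and 0.92.

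**Figure D2:**
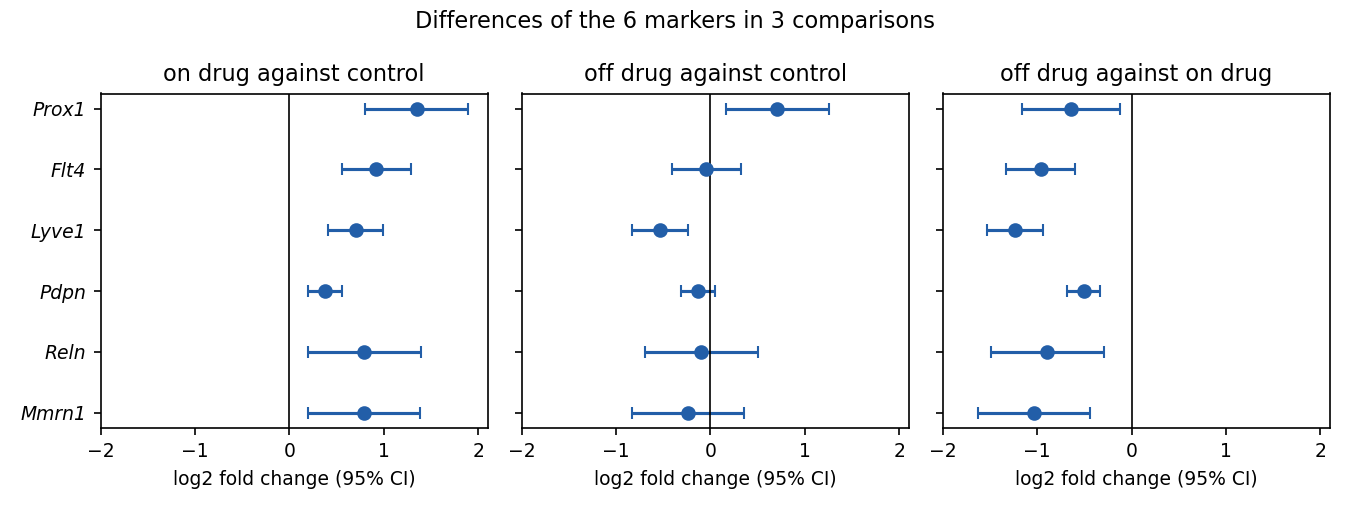
Log2 fold change of each marker (x axis) with its 95% confidence interval in 3 comparisons named above the panels. On drug the 6 values lie between 0.38 and 1.35. Off drug against control only Prox1 is above 0 (0.71), and off drug against on drug all 6 are below 0.

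One week after the drug ended, the 6 markers did not share a direction against controls. Lyve1 fell, with a log2 fold change of -0.53 ± 0.14 (95% confidence interval -0.83 to -0.24, adjusted p = 0.0229, edgeR's quasi-likelihood test with Benjamini-Hochberg adjustment), although off-drug replicate 2 at 39.95 CPM exceeded control replicate 1 at 37.4 CPM. Prox1 had a log2 fold change of 0.71 ± 0.26 (0.16 to 1.25, adjusted p = 0.0855), with all 4 off-drug libraries above all 4 controls, which holds for 9.20% of all genes. Flt4 (-0.04 ± 0.17, adjusted p = 0.915), Pdpn (-0.13 ± 0.08, 0.350), Reln (-0.10 ± 0.27, 0.872) and Mmrn1 (-0.24 ± 0.27, 0.639) did not pass the test. Their 95% confidence intervals on the log2 scale ran from -0.41 to 0.32 for Flt4, -0.31 to 0.04 for Pdpn, -0.70 to 0.51 for Reln and -0.84 to 0.35 for Mmrn1. In all, 0 of 6 were called higher and 1 of 6 lower, beside 6.27% of all genes called higher and 5.77% called lower, and the median was -0.11 against -0.0077 over all genes. The 1 call is not a stable one: Lyve1 lost it without off-drug replicate 1 (adjusted p = 0.0782), replicate 3 (0.0573) or replicate 4 (0.0698), without control replicate 3 (0.0636) or 4 (0.0781), with no filter on low counts (0.0728) and with these 2 groups fitted alone (0.0682). This comparison uses the same control libraries as the one on drug.

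The split between Prox1 and the other members was examined as log2 ratios within each library, over 15 pairs of genes and with an exact two-sided permutation test whose smallest possible p with 4 libraries against 4 is 0.0286. The ratio of Prox1 to Lyve1 averaged -5.58 ± 0.41 off drug and -6.78 ± 0.35 in controls (log2, SD, n = 4 each), a difference of 1.20. The ratios of Prox1 to Pdpn (difference 0.80) and of Prox1 to Flt4 (0.69) also separated the groups completely. All 3 had the smallest possible exact p of 0.0286, which became 0.143 after adjustment over the 15 pairs, so no pair passed. A separation of Prox1 alone from the others could not have passed this adjustment, whatever its size. Off drug against on drug, Lyve1 dropped relative to Pdpn by 0.74 and relative to Prox1 by 0.65 with the same exact p of 0.0286 (adjusted p = 0.214). The adjusted values thus say nothing on whether the members changed alike, and the differences are a description.

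Compared with the end of treatment, all 6 markers were lower on average after the drug-free week. Lyve1 fell by 1.24 ± 0.14 on the log2 scale (fold 0.424, adjusted p = 7.5e-05), Flt4 fell by 0.96 ± 0.17 (fold 0.513, 0.00119), Pdpn fell by 0.51 ± 0.08 (fold 0.703, 0.000419) and Mmrn1 fell by 1.03 ± 0.27 (fold 0.489, 0.0304), all by edgeR's quasi-likelihood test. Reln did not pass, at -0.89 ± 0.27 (adjusted p = 0.0554), nor did Prox1, at -0.64 ± 0.25 (0.103). So 4 of 6 were called lower, beside 6.92% of all genes, and the median was -0.93 against -0.0011 over all genes. Flt4, Lyve1 and Pdpn had no overlap between the groups, which 9.37% of all genes show in that direction. The on-drug libraries enter here too, and the genes were proposed with their on-drug levels known, so a lower value off drug is not independent of that choice. Mmrn1 and Reln stood close to the threshold. By method, Mmrn1 lost its call with no filter on low counts (0.0711) and with these 2 groups fitted alone (0.0532), and Reln was called in DESeq2 (0.0172), with a filter of 1 CPM in 4 libraries (0.0374) and in limma-voom (0.0499). Mmrn1 lost its call without off-drug replicate 1 (adjusted p = 0.0542), 2 (0.0815) or 3 (0.0758), and without on-drug replicate 1 (0.0680), 3 (0.0825) or 4 (0.0757). Reln gained one without off-drug replicate 4 (0.0315), on-drug replicate 2 (0.0430) or control replicate 2 (0.0484).

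Within groups, some of the markers varied together from library to library more closely than others. With each library expressed as its deviation from its own group's mean log2 CPM, Reln and Mmrn1 varied closely together (Pearson r = 0.94 over 12 libraries), and Flt4 went with them (r = 0.80 with Reln and 0.75 with Mmrn1). Lyve1 and Pdpn formed a second, looser pair (r = 0.58), and Prox1 was closest to Flt4 (r = 0.41). Between the 3 genes of the first set and these 2, r lay between -0.05 and 0.15, and the median of all 15 pairs was 0.12. Low values rested in part on single libraries: the median was 0.504 without off-drug replicate 1, 0.350 without control replicate 1, 0.288 without off-drug replicate 4 and 0.221 without control replicate 4, and it was 0.0765, 0.0454 and 0.0174 when on-drug replicate 3, on-drug replicate 2 or control replicate 2 was left out. Leaving out 1 library took r as high as 0.42 for Lyve1 with Mmrn1, 0.41 for Flt4 with Lyve1 and 0.37 for Lyve1 with Reln, and as high as 0.59 for Prox1 with Reln and 0.61 for Prox1 with Mmrn1. These values describe libraries that share their depth, scaling and piece of tissue, and they carry no test. Leaving out 1 library at a time gave 0.914 to 0.958 for Reln with Mmrn1, 0.764 to 0.934 for Flt4 with Reln, 0.645 to 0.813 for Flt4 with Mmrn1, 0.294 to 0.799 for Lyve1 with Pdpn and 0.171 to 0.620 for Prox1 with Flt4. Off-drug replicate 1, control replicate 2 and on-drug replicate 2 were low in both Reln and Mmrn1, and without these 3 libraries the r fell to 0.756 for that pair and 0.431 for Flt4 with Mmrn1, and was 0.855 for Flt4 with Reln.

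**Figure D3:**
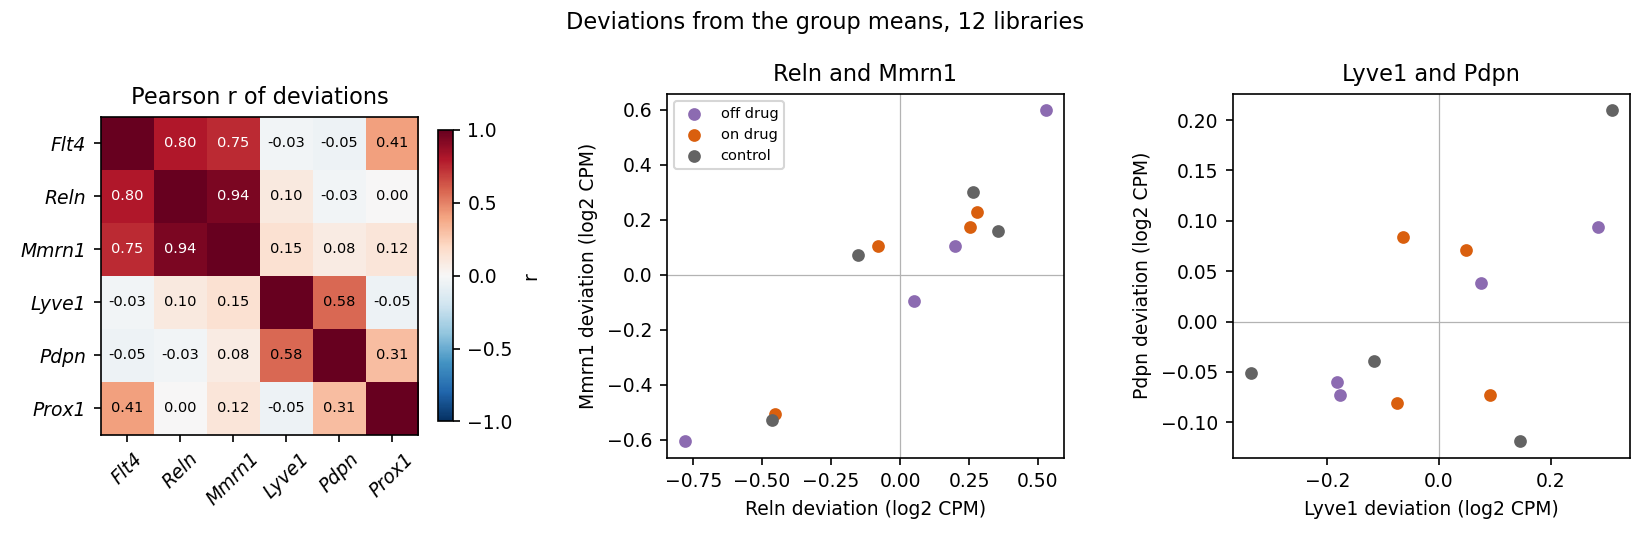
Left, Pearson r between the markers' deviations from their group means over 12 libraries. Centre and right, the deviations (log2 CPM) of Mmrn1 against Reln and of Pdpn against Lyve1, 1 point a library. Flt4, Reln and Mmrn1 form a block with r of 0.75 to 0.94, Lyve1 and Pdpn pair at 0.58, and 3 libraries sit at the low end of the Reln and Mmrn1 plot.

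The members' deviations were also set beside other measures. Ccl21a, a chemokine of lymphatic endothelium whose reads may be shared with near-identical copies, had within-group r of 0.87 with Reln, 0.82 with Mmrn1 and 0.81 with Flt4, and 0.22 with Prox1, 0.11 with Lyve1 and 0.28 with Pdpn. For Prox1 it was 0.790 without off-drug replicate 1 and -0.0431 when on-drug replicate 2 was left out. For Lyve1 it was 0.491 without control replicate 1 and -0.111 without off-drug replicate 1. Without the 3 libraries low in Reln, the values for Reln, Mmrn1 and Flt4 were 0.511, 0.301 and 0.731. Ccl21a averaged 5.66 ± 1.91 CPM off drug, 10.7 ± 2.93 CPM on drug and 5.78 ± 1.75 CPM in controls (SD, n = 4 each), and it passed the test in none of the 3 comparisons (adjusted p = 0.979 off drug against control, 0.0806 off drug against on drug, 0.112 on drug against control, edgeR's quasi-likelihood test). Pdpn varied with the summed markers of adventitial fibroblasts (r = 0.90, or 0.679 without control replicate 3 and off-drug replicate 2, its farthest libraries) and with those of mesothelium (r = 0.72). A single gene, Dcn, made up most of the fibroblast sum, averaging 1767 of its 2994 CPM in controls. The mesothelium sum was only 0.971 to 4.82 CPM, was highest in control replicate 3, and was not tried with libraries left out. Lyve1 had r of 0.60 with the fibroblast sum, or 0.234 without control replicates 1 and 3. Its r was -0.08 with the summed markers of resident macrophages and 0.59 with those of platelets, the latter not tried with libraries left out. Reln and Mmrn1 varied inversely with the macrophage sum (r = -0.72 and -0.74). Prox1 varied with the summed markers of blood endothelium (r = 0.68). That value was 0.587 without on-drug replicate 2 and off-drug replicate 1, and 0.485 without the 3 libraries low in Reln. Flt4 had r of 0.55 with the same sum (0.437 to 0.739 as each library was left out), Reln 0.13 and Mmrn1 0.20. Prox1 varied inversely with the summed lymphocyte and lymph node markers (r = -0.62), which was not tried with libraries left out. Mmrn1 had r of -0.07 with platelet markers.

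The markers of other cell types were set beside the lymphatic ones, since several of the 6 genes are also made by other cells. The summed blood endothelial markers (14 genes) ranged over 706 to 904 CPM off drug, 953 to 1123 CPM on drug and 771 to 862 CPM in controls, so this list too was higher in every on-drug library than in any other. Of its genes, 3 rose on drug against control and 0 fell, among them Vwf, the von Willebrand factor (log2 fold change 0.58 ± 0.07, adjusted p = 0.000142), and Eng, a TGF-beta co-receptor (0.49 ± 0.09, 0.00347). Off drug against on drug 6 of the 14 fell, with the smallest adjusted p for Vwf (-0.53 ± 0.07, 7.6e-05), and 1 rose. Off drug against control 2 fell, Icam2 (adjusted p = 0.0131, edgeR's quasi-likelihood test) and Egfl7 (0.0140), and both kept their calls in every alternative. Eng alone rose there (0.0343), a call lost in 6 of 20 alternatives. The part of blood endothelium in the lymphatic marker values was not tested.

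The summed markers of resident macrophages (11 genes) ranged over 1126 to 1248 CPM off drug, 1208 to 1277 CPM on drug and 1176 to 1248 CPM in controls. On drug against control 2 of the 11 rose, Csf1r (adjusted p = 0.0403) and Cd163 (0.0495), both genes of the macrophage lineage, and each lost its call in 10 of the 12 fits that left out a library (adjusted p up to 0.151 and 0.145). Over the 20 alternative fits, Csf1r lost its call in 12 and Cd163 in 13. Off drug against on drug 5 of the 11 fell and 0 rose. The smallest adjusted p was that of Folr2 (0.00658, edgeR's quasi-likelihood test), then Mrc1 (0.00837), and neither lost its call in any alternative. Off drug against control 2 of the 11 fell and 0 rose. Adgre1 (adjusted p = 0.000632) kept its call in every alternative, while Folr2 (0.0394) lost its own in 9 of 20. Adventitial fibroblast markers (7 genes) summed to 2722 to 3022 CPM off drug, 2846 to 3106 CPM on drug and 2765 to 3410 CPM in controls, with 0 of the 7 called on drug against control, 2 lower in off-drug mice than in controls and 3 lower off drug against on drug. Platelet markers (7 genes) summed to 39.0 to 51.5 CPM off drug, 42.7 to 45.6 CPM on drug and 38.2 to 54.9 CPM in controls, with 0 of 7 called in each comparison. Of the 6 smooth muscle markers 1 rose on drug against control, Myh11 (adjusted p = 0.00788), and 0 fell. Off drug against control 2 rose, Smtn (0.000743) and Myh11 (0.0103), and 0 fell. Between the drug groups 1 was higher off drug and 1 lower. Mesothelial markers were near 0, at 0.971 to 2.73 CPM off drug, 1.21 to 3.79 CPM on drug and 1.24 to 4.82 CPM in controls. Their parts in the lymphatic values were not tested.

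Lymph node and fat around the aorta hold lymphatic vessels of their own. Lymphocyte and lymph node markers (12 genes) summed to 5.83 to 19.96 CPM off drug, 5.90 to 21.3 CPM on drug and 3.39 to 6.11 CPM in controls, with 1 library standing out on drug (replicate 2) and 1 off drug (replicate 4). On drug against control 1 of the 10 tested rose, the chemokine receptor Ccr7 (log2 fold change 2.50 ± 0.67, adjusted p = 0.0308), and the median of the 10 was 0.87; that call was lost without on-drug replicate 2 (0.124), control replicate 2 (0.0838), 3 (0.103) or 4 (0.0545) and in limma-voom (0.0983). None of the 10 was called in the other 2 comparisons. On-drug replicate 2 was also the on-drug library with the lowest level of each of the 6 markers, and off-drug replicate 4 the off-drug library with the highest Flt4, Reln and Mmrn1. Adipocyte markers (7 genes) ranged widely in each group, over 64.9 to 392 CPM off drug, 185 to 321 CPM on drug and 119 to 495 CPM in controls, and within groups Reln and Mmrn1 varied with them (r = 0.69 and 0.65). These correlations were not tried with libraries left out. Off-drug replicate 1, low in both genes, had an adipocyte sum of 74.9 CPM. Skeletal muscle markers (6 genes) summed to 18.5 to 64.4 CPM off drug, 17.3 to 35.2 CPM on drug and 19.6 to 40.5 CPM in controls, cardiac markers to 7.88 to 27.7 CPM, 4.51 to 19.96 CPM and 5.70 to 21.7 CPM, and Schwann cell markers to 7.48 to 9.13 CPM, 6.22 to 7.80 CPM and 6.62 to 13.4 CPM, in the same order of groups. On drug against control 2 of the 6 skeletal muscle genes rose, Ckm (0.72 ± 0.15, adjusted p = 0.00824) and Tnnt3 (0.87 ± 0.25, 0.0379), the second call being lost in 8 of 12 fits without 1 library (off-drug replicates 1 and 3, on-drug replicates 2 to 4 and control replicates 1 to 3, adjusted p = 0.0501 to 0.156) and in limma-voom (0.0759). Only 3 of the 6 were positive in that comparison, while off drug against control all 6 were, with a median of 0.62. There 1 was called, Ckm (adjusted p = 0.00101, edgeR's quasi-likelihood test), which kept its call in every alternative. Off drug against on drug 1 was called higher, Mylpf (0.0280), a call lost in 6 of 19 alternatives. No marker of these lists was at 0 in all libraries, and the part of these tissues was not tested.

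**Figure D4:**
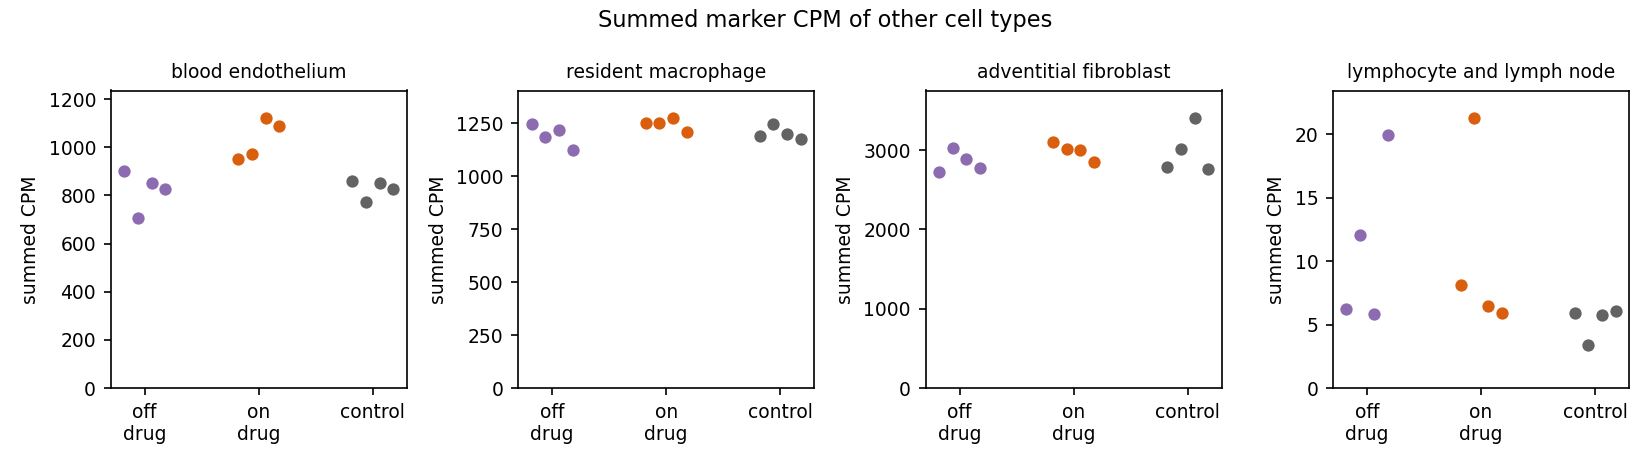
Summed CPM (y axis, from 0) of markers of 4 other cell types in the 4 off-drug, 4 on-drug and 4 control libraries (points, replicates 1 to 4 from left to right). Blood endothelial markers lie at 953 to 1123 CPM in the on-drug libraries, above all others, while macrophage and fibroblast sums overlap between groups.

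Beyond the 6 markers, 58 other genes of lymphatic biology were read from 5 lists, and all 58 were tested. On drug against control 13 were higher, 3 lower and 42 not called, with a median log2 fold change of 0.19. Off drug against control 11 were higher and 5 lower, with a median of 0.06. Off drug against on drug 9 were higher and 16 lower, with a median of -0.09. The background of each comparison was the share of all genes called (on drug against control 4.13% higher and 2.94% lower, off drug against control 6.27% and 5.77%, and between the drug groups 5.44% and 6.92%). The 5 lists were chosen with earlier results of these data known, so these counts are a description and support nothing. Many of the 58 genes are also expressed by blood vessels or smooth muscle. The counts changed with the libraries kept. On drug against control the 16 calls became 7 when on-drug replicate 3 was left out. They became 10 when on-drug replicate 4 or control replicate 3 was. Off drug against control the 16 became 10 without off-drug replicate 3 and 9 without control replicate 3. Calls over all genes dropped in the same fits. On drug against control, 1018 higher and 725 lower became 472 and 331, 595 and 323, and 541 and 365, in the order just given. Off drug against control, 1545 and 1422 became 1060 and 982, then 1003 and 986. The drops were thus not limited to the lymphatic lists.

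Among 17 growth signals, the ligands of VEGFR-3 changed little. Vegfc passed the test in no comparison, with log2 fold changes of -0.07 ± 0.12 on drug and -0.12 ± 0.12 off drug, each set against control, and -0.05 ± 0.12 between the 2 drug groups. Vegfd averaged 44.8 ± 1.57 CPM off drug, 39.3 ± 3.43 CPM on drug and 36.9 ± 3.22 CPM in controls (SD, n = 4 each), and rose off drug against control by 0.28 ± 0.07 (adjusted p = 0.0163), a call lost without control replicate 3 (0.0504) or 4 (0.0551). Nrp2, the VEGF-C co-receptor, passed in none (0.26 ± 0.15, 0.03 ± 0.15 and -0.23 ± 0.15). Ccbe1, a matrix protein needed for VEGF-C activation, followed another course from the 6 markers: it averaged 13.4 ± 1.35 CPM off drug, 9.36 ± 0.860 CPM on drug and 7.10 ± 0.621 CPM in controls. It rose off drug against control by 0.92 ± 0.10 (adjusted p = 7.6e-06) and off drug against on drug by 0.52 ± 0.10 (0.00139). Its rise on drug against control (0.40 ± 0.10, adjusted p = 0.0213) was lost without on-drug replicate 3 (0.0751) or 4 (0.0593), without control replicate 3 (0.0715) or 4 (0.0563) and in limma-voom (0.0516).

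Other growth signals moved each in its own way. Svep1, a matrix protein required for lymphatic remodelling, rose on drug against control (0.46 ± 0.07, adjusted p = 0.00129) and fell off drug against on drug (-0.36 ± 0.07, 0.00232). Angpt1, the activating ligand of the receptor Tie2, fell on drug against control (-0.76 ± 0.16, 0.00893), while Tek, which encodes Tie2, fell off drug against control (-0.38 ± 0.08, 0.00421) and against on drug (-0.40 ± 0.08, 0.00227). Adm, the peptide adrenomedullin, averaged 13.03 ± 2.26 CPM off drug, 6.11 ± 0.253 CPM on drug and 6.86 ± 1.86 CPM in controls (SD, n = 4 each). It rose off drug against control (0.92 ± 0.16, 0.00104) and against on drug (1.09 ± 0.16, 0.000201). Adamts14, a procollagen peptidase, rose on drug against control (0.48 ± 0.11, 0.0167), a call lost without on-drug replicate 3 (0.0658) or 4 (0.0551) or control replicate 2 (0.0554) or 3 (0.0556).

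Of 11 transcription factors, 4 rose on drug against control and 0 fell. Sox18, which switches on Prox1 in the embryo, had 4.54, 3.21, 4.44 and 4.26 CPM off drug, 5.48, 8.29, 9.51 and 8.93 CPM on drug, and 4.35, 4.44, 3.32 and 5.15 CPM in controls. All on-drug libraries were above all others, and Sox18 rose on drug against control (0.89 ± 0.17, adjusted p = 0.00485) and fell off drug against on drug (-0.96 ± 0.17, 0.000887), with no call off drug against control (-0.07 ± 0.17, 0.841). Nfatc1, a factor of lymphatic valves, rose on drug against control (0.41 ± 0.10, 0.0155), a call lost without on-drug replicate 3 (0.0736) or 4 (0.0567) or control replicate 3 (0.0584). Gata2, another valve factor, fell off drug against on drug (-0.47 ± 0.13, 0.0207), a call lost without off-drug replicate 2 (0.0723) or 3 (0.0712) or on-drug replicate 3 (0.0736) or 4 (0.0613).

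Off drug, different factors led. Nr2f2, which encodes the venous and lymphatic factor COUP-TFII, averaged 24.2 ± 1.45 CPM off drug, 19.6 ± 2.15 CPM on drug and 15.8 ± 2.74 CPM in controls (SD, n = 4 each) and rose off drug against control (0.62 ± 0.11, adjusted p = 0.000917). Foxc1, a forkhead factor of vessels and mesenchyme, rose off drug against control (0.50 ± 0.09, 0.00254) and against on drug (0.53 ± 0.09, 0.00119). In all, 3 of the 11 factors rose off drug against control and 0 fell, and off drug against on drug 1 rose and 4 fell.

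Other markers reported for lymphatic endothelium (11 genes) were mixed. Clca3a1, a chloride channel accessory protein, averaged 0.618 ± 0.243 CPM off drug, 1.57 ± 0.0794 CPM on drug and 0.805 ± 0.129 CPM in controls (SD, n = 4 each) and fell off drug against on drug (-1.32 ± 0.27, adjusted p = 0.00249). It rose on drug against control (0.96 ± 0.27, 0.0345), a call lost without any of the 4 on-drug libraries or of control replicates 1 to 3 (adjusted p = 0.0568 to 0.102). Nts, the peptide neurotensin, rested on 6 to 29 reads a library off drug, 31 to 86 on drug and 22 to 31 in controls, and fell off drug against on drug (-2.33 ± 0.39, 0.000484). Ackr2, a scavenging chemokine receptor of lymphatic endothelium, fell off drug against on drug (-0.87 ± 0.14, 0.000478) and against control (-0.55 ± 0.14, 0.0184), the second call being lost without off-drug replicate 1 (0.0638) or 3 (0.0527). Lbp, the lipopolysaccharide-binding protein, rose on drug against control (0.57 ± 0.11, 0.0058). Cp, which encodes ceruloplasmin, fell off drug against control (-0.35 ± 0.08, 0.00688) and on drug against control (-0.31 ± 0.08, 0.0262), the second call being lost without on-drug replicate 4 (0.0990) or control replicate 2 (0.0692) and without composition factors (0.0936). Pard6g, a polarity protein, rose off drug against control (0.40 ± 0.12, 0.0379), a call lost in 8 of 12 fits without 1 library (off-drug replicates 1 to 4, on-drug replicate 2 and control replicates 2 to 4, adjusted p up to 0.108). The Pard6g call was also lost with no filter (0.0863) and with the replicate number as a block (0.0540).

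Among 10 valve and junction genes, Gja1, which encodes connexin 43, moved against the markers. It averaged 67.6 ± 3.42 CPM off drug, 46.5 ± 5.68 CPM on drug and 76.3 ± 12.2 CPM in controls (SD, n = 4 each), falling on drug against control (-0.72 ± 0.11, adjusted p = 0.00129) and rising off drug against on drug (0.54 ± 0.11, 0.00287). Celsr1, a planar polarity cadherin of lymphatic valves, rose on drug against control (0.58 ± 0.13, 0.0121), a call lost without on-drug replicate 3 (0.0529). Gja4, connexin 37, rose on drug against control (0.34 ± 0.10, 0.0455), a call lost in 7 of 12 fits without 1 library (off-drug replicates 1 and 4, on-drug replicates 2 and 3 and control replicates 2 to 4, adjusted p up to 0.138). The Gja4 call was also lost with the 2 groups alone (0.0524) and with the replicate number as a block (0.0699). Fat4, a large atypical cadherin, rose off drug against control (0.40 ± 0.08, 0.0043). Itga9, the integrin alpha 9 chain, fell off drug against control (-0.29 ± 0.07, 0.0107, but 0.0647 without composition factors) and against on drug (-0.46 ± 0.07, 0.000218), and the mechanically gated channel Piezo1 fell off drug against on drug (-0.52 ± 0.10, 0.00233).

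The last list held 9 genes tied to the products of the 6 markers, as binding partners or, like Hyal2, through hyaluronan. Cd44, a hyaluronan receptor that also binds podoplanin, averaged 26.3 ± 3.37 CPM off drug, 47.7 ± 6.97 CPM on drug and 33.2 ± 4.59 CPM in controls (SD, n = 4 each). It rose on drug against control (0.52 ± 0.12, adjusted p = 0.0166), a call lost without on-drug replicate 3 (0.0613) or control replicate 1 (0.0503) or 2 (0.0527), and fell off drug against on drug (-0.86 ± 0.12, 0.000217). Cd9, a tetraspanin partner of podoplanin, rose on drug against control (0.32 ± 0.09, 0.027). That call was lost without on-drug replicate 2 (0.0739) or 3 (0.104) or control replicate 3 (0.0771) or 4 (0.0620), and with the 2 groups alone (0.0594). Hyal2, a hyaluronidase, fell off drug against on drug (-0.42 ± 0.07, 0.000363). Lrp8, a reelin receptor, rose off drug against control (0.52 ± 0.16, 0.0373), a call lost in 6 of 12 fits without 1 library (off-drug replicates 1 to 3 and control replicates 1 to 3, adjusted p up to 0.135). The Lrp8 call was also lost with no filter (0.0717), in limma-voom (0.0578), with the 2 groups alone (0.0582) and with the replicate number as a block (0.0609).

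**Figure D5:**
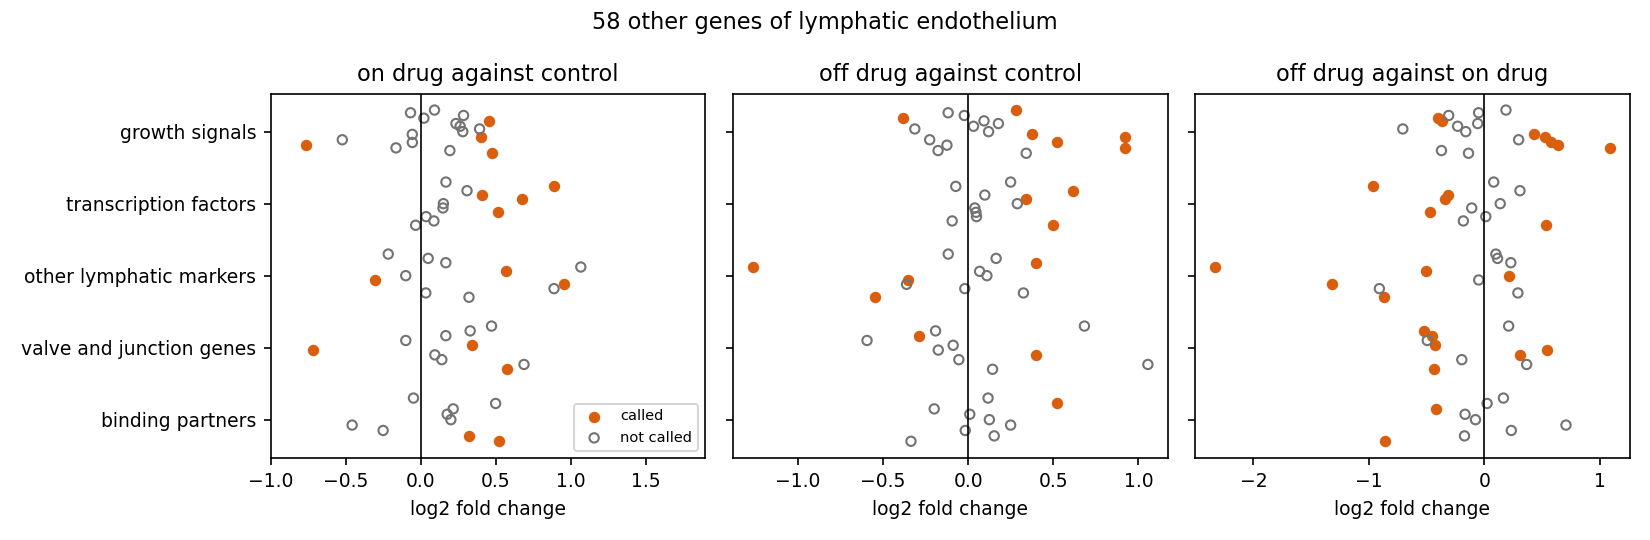
Log2 fold change (x axis) of 58 other genes of lymphatic biology in 5 lists (y axis) in the 3 comparisons; filled points passed an adjusted p of 0.05 and open points did not. On drug 13 of 16 called genes lie above 0, and off drug against on drug 16 of 25 lie below 0.

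The genes whose level most resembled the mean of the 6 markers were sought among 12797 others whose log2 CPM averaged 0 or more, by Pearson r over the 12 libraries with the mean of the members' z scores. The 10 most alike were Fndc1 (r = 0.95), Por, Fbln2, Nid1, Vav2, Wipi1 and Cmip (each 0.93), Fxyd5 and Arhgap31 (each 0.92) and Zmiz1 (0.91). Fbln2 and Nid1 encode the matrix proteins fibulin 2 and nidogen 1. Fndc1 averaged 27.2 CPM off drug, 46.0 CPM on drug and 29.4 CPM in controls, Fbln2 172 CPM, 278 CPM and 174 CPM in the same order of groups. Within groups the r fell to between 0.33 and 0.78, the highest being that of Arhgap31, so part of each likeness is the difference between groups that the members were proposed on. No gene of the 5 lymphatic lists was among the 10.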

How the data were processed

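RNA-seq of 12 aortas was used, 4 a group, grouped by the labels. The deposited raw counts are per gene and unstranded, made by the authors with featureCounts 1.4.6-p3, which kept multi-mapping and overlapping reads and ignored reads marked as duplicates, per the file headers, over GENCODE mouse M13 exons on a STAR 2.5.3a index, also per the file headers; the genome was GRCm38 per the submitters' processing notes. The deposited series table holds log2 values that equal log2(count / DESeq2 size factor + 1) within 5.0e-09 in the 12 libraries, and supplied symbols and coordinates.

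The counts were filtered with filterByExpr (minimum count 10, total 15), scaled by TMM and fitted over all genes and groups with edgeR 4.0.16 (quasi-likelihood, robust) in R 4.3.3. P-values were Benjamini-Hochberg adjusted over 24660 genes, with a threshold of 0.05. P-values judge a difference between groups against the spread between these samples, estimated over all groups together. Total counts were 41524501 to 109423243, and counting error weighs most on Prox1.

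Alternatives were DESeq2 size factors, no composition factors, no filter, at least 1 CPM in 4 libraries, DESeq2 1.42.0, voom with quality weights (limma 3.58.1), 2 groups alone, the replicate number as a block and each library left out. The correlations with Ccl21a and with marker sums with libraries left out were added after the data had been seen. So were all correlations without 2 or 3 libraries. The code was tested on simulated data.

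The members and lists were chosen with earlier results of these data known. Named genes are all members, up to 3 called genes per lymphatic list and comparison by smallest adjusted p, the genes Vegfc, Vegfd, Nrp2 and Ccbe1, up to 2 called per other cell type, and the 10 genes most like the members. Ccl21a was added after its values were seen. One gene that this rule names is not reported here.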

Additional observations from a re-analysis of the deposited data

Results flagged for a closer look

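Of the 18 groups of 4 CPM values examined for the 6 markers, 1 held a library far from the other 3. Prox1 stood at 0.853 CPM in off-drug replicate 1, against 0.587 to 0.628 CPM in the other off-drug libraries, and the gap was 0.848 of the group's whole range, above Dixon's critical value for 4 samples. Chance alone flags about 1 in 20 such groups.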

How the results depend on the processing

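On drug against control, the comparison the members were proposed on, the median log2 fold change of the 6 ranged over 0.65 to 0.92 as each library was left out. Members called off drug against control numbered 0 with no filter and 0 with the 2 groups alone, and 0 to 1 over the leave-one-out fits. Prox1 was called there in none of the alternatives; it is not in the fit that asks for 1 CPM in 4 libraries. As each library was left out, members called off drug against on drug numbered 3 to 5, other lymphatic genes called numbered 7 to 18 on drug against control, 9 to 15 off drug against control and 18 to 27 off drug against on drug, and the median within-group r ran from 0.0174 to 0.504; the cause was not tested. Over the other alternatives, the counts of other lymphatic genes were 14 to 23, 13 to 20 and 22 to 28 in the same order. Without composition factors the calls over all genes split 1038 higher and 388 lower on drug against control (1018 and 725 with them) and 1870 and 844 off drug against control (1545 and 1422). Same-numbered samples did not deviate together (r -0.0797 to 0.0672 over 12 pairs), and they were treated as unpaired in the main fit. The labels do not say whether the numbers pair them. With the replicate block, 5 members were called off drug against on drug, Reln among them (adjusted p = 0.0335). The Prox1 reads, 23 to 29 a control library, limit its precision most.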
